A study of Homo sapiens with 8 samples.

Results

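The stretch of human chromosome 14 that holds HIF1A and SNAPC1 was described from ChIP-seq peaks (sequencing of DNA that is precipitated together with a protein) of HuCCT1 cells, an established line from a human bile duct cancer, or cholangiocarcinoma. A peak was counted when its centre lay within 200 kb of the hg19 start site of HIF1A (62162119) or of SNAPC1 (62229075), which lie 66956 bp apart, so that the window ran from 61962119 to 62429075. It held 57 of the 51828 peaks in 5 deposited lists: 4 of 847 HA-YAP5SA peaks, 1 of 454 YAP peaks, 33 of 38186 TEAD1 peaks, 19 of 12188 TEAD4 peaks and none of 153 TAZ peaks. The locus was chosen by the HA-YAP5SA peak scores, because it holds the highest one, so the HA-YAP5SA values and the presence of that site are a description and not a finding.

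The series holds 8 libraries of HuCCT1 cells, with 1 library for each antibody or control. HA-YAP5SA is an HA-tagged form of YAP in which the serines targeted by the LATS kinases are alanine, precipitated through its tag. The YAP, TAZ (encoded by WWTR1), TEAD1 and TEAD4 libraries were made with an antibody against each protein, and the input, IgG and GFP libraries are controls that were not analysed here. No label gives a treatment, a clone or how YAP5SA was brought into the cells, and none says whether the cells of the other libraries carried it. With 1 library per antibody there is no replicate check and no test between libraries. The sequencing depth is unknown. The peak score is the authors' own value on an unstated scale, so scores and ranks are compared only within a list. Intervals are exact 95% Clopper-Pearson intervals that cover counting error only, and neighbouring peaks of 1 locus are not independent.

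HIF1A encodes the oxygen-sensitive subunit of hypoxia-inducible factor 1. In well-oxygenated cells it is hydroxylated and degraded through VHL, and in hypoxia it pairs with ARNT and switches on genes of glycolysis, angiogenesis and survival. SNAPC1 encodes a subunit of the small nuclear RNA activating protein complex, which binds the promoters of small nuclear RNA genes read by RNA polymerases II and III. YAP and TAZ are coactivators held back by the Hippo kinases. They lack a DNA-binding domain and are brought to chromatin chiefly by TEAD factors, which in many epithelial cancer cells occupy sites away from promoters.

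The promoter sequences are shown because no list had a peak at either start site. They are the 250 bases before the RefSeq start in GRCh38.p14, a build other than that of the peaks, on the plus strand at chr14:61695263-61695512 for HIF1A and chr14:61762170-61762419 for SNAPC1. RefSeq gives a second HIF1A start, whose sequence is not shown.
HIF1A: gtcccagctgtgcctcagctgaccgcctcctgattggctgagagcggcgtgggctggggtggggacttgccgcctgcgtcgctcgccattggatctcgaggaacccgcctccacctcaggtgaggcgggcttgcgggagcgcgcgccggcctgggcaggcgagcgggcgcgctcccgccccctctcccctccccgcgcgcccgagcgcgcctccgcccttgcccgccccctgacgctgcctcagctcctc
SNAPC1: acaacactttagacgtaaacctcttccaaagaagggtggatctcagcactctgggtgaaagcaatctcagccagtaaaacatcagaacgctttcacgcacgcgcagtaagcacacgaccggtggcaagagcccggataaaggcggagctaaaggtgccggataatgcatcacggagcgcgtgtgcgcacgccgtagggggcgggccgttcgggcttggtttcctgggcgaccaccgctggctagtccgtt
Capitals were kept for matches to GGAATG (the TEAD motif), TGANTCA (AP-1) and ACGTG (a form of the core of the hypoxia response element). Each was searched on both strands, and neither sequence held a match. Other forms of that core, such as GCGTG, were not searched. Among 35116 RefSeq promoter windows of the same length, 11.9% held GGAATG, 6.57% held TGANTCA and 18.5% held ACGTG. G and C made up 75.6% of the HIF1A sequence and 57.6% of the SNAPC1 sequence, against a median of 58% over all these windows. In the 250 bases before the second HIF1A start they made up 31.2%, and no match to the motifs was found there.

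The site nearest to SNAPC1 was the single place in the window where 4 lists met. Its HA-YAP5SA peak (chr14:62221732-62222489) had a score of 1028, the highest of 847. Its YAP peak (chr14:62221930-62222473) scored 924, which ranked 13 of 454. The TEAD1 peak (chr14:62221091-62222739) scored 3144 and ranked 2 of 38186, and the TEAD4 peak (chr14:62221647-62222613) scored 3100, the highest value of its list, which 5 TEAD4 peaks share. All 4 sat near the top of their own lists. The highest score of the YAP list was 3100 as well, shared by 6 peaks. Whether that value is a ceiling of the score was not tested. Over the whole YAP list, 11.9% of peaks overlapped HA-YAP5SA, 20.3% overlapped TEAD1 and 18.5% overlapped TEAD4. Over the HA-YAP5SA list, 6.49% overlapped YAP, and 1 of the 4 HA-YAP5SA peaks of the window did. TAZ, the paralogue of YAP, had no peak there. The only TAZ peak on chromosome 14 (87585062 to 87585209, score 82.8) lay 25.4 Mb past the SNAPC1 start, and 0 of 153 TAZ peaks in the window allows a share of up to 1.96% of that list when the limit is set at 3 counts, which is not a Clopper-Pearson bound.

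The peaks at this site were nested. The YAP peak of 544 bp lay inside the HA-YAP5SA peak of 758 bp, which lay inside the TEAD4 peak of 967 bp, which lay inside the TEAD1 peak of 1649 bp. The TEAD1 peak began 641 bp before the HA-YAP5SA peak and ended 250 bp after it, so its extra length lay mostly on the HIF1A side. The centre of the TEAD4 peak was 19.5 bp from that of HA-YAP5SA, the YAP centre 91 bp and the TEAD1 centre 195.5 bp. Over the HA-YAP5SA peaks that overlap each TEAD, the median offset was 52 bp to TEAD4 (783 peaks) and 67.5 bp to TEAD1 (806 peaks), and 91.9% had a smaller offset to TEAD1 than this site. Of the 52 YAP peaks in the series that overlap HA-YAP5SA, TEAD1 and TEAD4, 25 (48.1%) showed the same order of nesting.

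**Figure D1:**
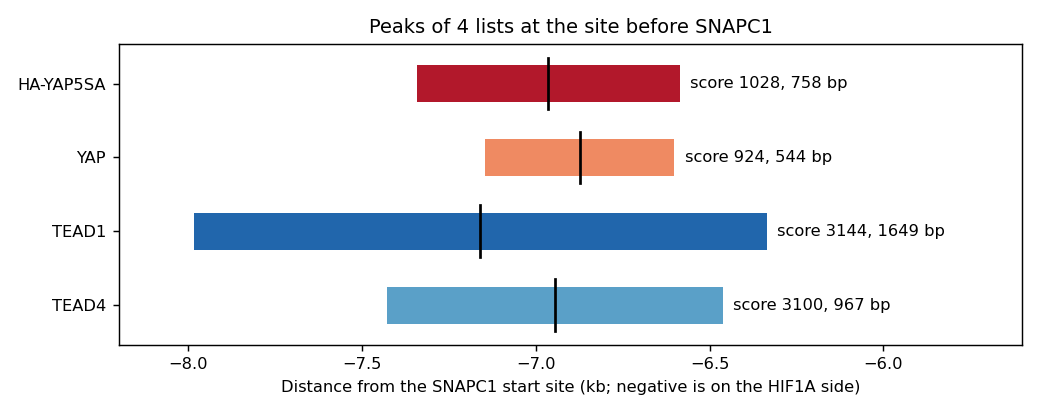
Peaks of the 4 lists at the site before SNAPC1, drawn to scale against distance from the SNAPC1 start site in kb, with 1 bar per list and a black line at each centre. The YAP bar (544 bp) lies within the HA-YAP5SA bar (758 bp), and the TEAD1 bar (1649 bp) reaches farthest towards HIF1A.

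The site lay between the genes' start sites and away from both. The HA-YAP5SA centre was 6.96 kb before the start of SNAPC1 and 60.0 kb past the start of HIF1A. RefSeq's HIF1A spans 52746 bases in GRCh38, which is shorter than that distance. Where HIF1A ends in hg19 was not analysed here. In RefSeq the antisense transcripts HIF1A-AS3 and HIF1A-AS2 stand between HIF1A and SNAPC1 in order of their starts, and where they lie relative to the site was not analysed either.

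No peak of any list reached the HIF1A start site. The nearest was a TEAD1 peak 10.9 kb past it (chr14:62172685-62173302), with a score of 139 and a percentile of 37.5 in the TEAD1 list, a percentile being the share of the list with a lower score. On the other side the nearest TEAD1 peak lay 27.6 kb before the start (chr14:62134259-62134711, score 95.4). Both are low values in that list, whose median is 177. The nearest TEAD4 peak lay 41.8 kb before HIF1A (chr14:62120153-62120577, score 164). The nearest HA-YAP5SA and YAP peaks were those of the 4-list site.

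The SNAPC1 start site was also free of peaks, and the 4-list site was the nearest for HA-YAP5SA, YAP, TEAD1 and TEAD4 alike. The edge of its TEAD1 peak came to within 6.34 kb of the start. Past the start of SNAPC1 the next peak was a weak TEAD1 peak 75.4 kb away (chr14:62304213-62304751, score 102) with a TEAD4 peak on it (chr14:62304310-62304699, score 95.7). RefSeq's SNAPC1 spans 34.0 kb in GRCh38. The 81.5 kb between that TEAD1 peak and the 4-list site was the widest gap between neighbouring TEAD1 peaks in the window, where the median gap was 3585.5 bp. How many start sites in the genome carry a peak was not counted, since no hg19 annotation was at hand. Nothing is therefore read from the lack of a peak at the HIF1A and SNAPC1 starts.

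Joining overlapping peaks gave 33 sites, each with 1 TEAD1 peak. TEAD1 stood alone at 15 sites, with TEAD4 at 14, with TEAD4 and HA-YAP5SA at 3, and with TEAD4, HA-YAP5SA and YAP at 1. All 19 TEAD4 peaks overlapped TEAD1, as 97.1% of the whole TEAD4 list did. One TEAD1 peak (chr14:62019451-62021040) carried 2 TEAD4 peaks, with scores of 332 and 81.0. All 4 HA-YAP5SA peaks overlapped TEAD1 and TEAD4, as did 95.2% and 92.4% of all HA-YAP5SA peaks, and each lay wholly within the TEAD1 and TEAD4 peaks it met.

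**Figure D2:**
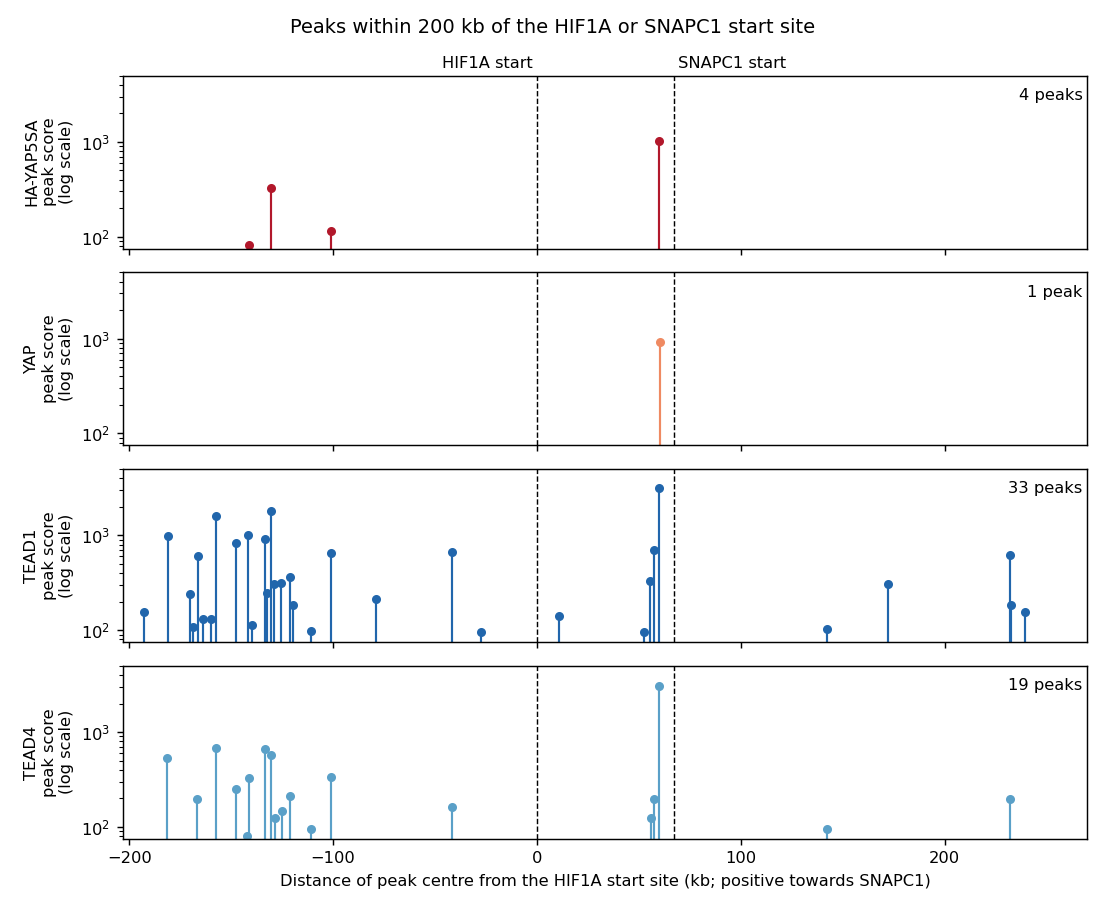
Score of each peak (log scale) against the distance of its centre from the HIF1A start site in kb, with 1 panel for HA-YAP5SA, YAP, TEAD1 and TEAD4 and dashed lines at the HIF1A and SNAPC1 start sites. The highest point of every panel stands 59.8 to 60.1 kb past HIF1A, and most TEAD1 peaks (23 of 33) stand before HIF1A.

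Most TEAD peaks of the window lay before HIF1A, many of them at 100.5 kb and more from its start. Before the HIF1A start lay 23 of the 33 TEAD1 peaks and 14 of the 19 TEAD4 peaks. Between the start sites lay 5 TEAD1 and 3 TEAD4 peaks, and past the SNAPC1 start 5 TEAD1 and 2 TEAD4 peaks. When centres up to 10 kb from the next were chained together, 18 TEAD1 peaks formed 1 stretch of 70.0 kb (chromosome 14, 61991622 to 62061617), and they covered 25.3% of it. TEAD4 was present at 11 of these 18 and HA-YAP5SA at 3. Their TEAD1 scores ran from 97.1 to 1791 with a median of 310.

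This stretch had the most peaks of the 6873 runs of at least 2 TEAD1 peaks in the whole list. At a permitted distance of 20 kb the run grew to 28 peaks over 132.1 kb (61929485 to 62061617), past the left edge of the window, and again had the most. The rank depended on the distance: at 5 kb the longest run in the window had 7 peaks and the longest in the list 12. At 50 kb the run that reaches into the window had 39 peaks, and the longest in the list had 51. The run of 39 began at 61886972, before the window's left edge, and ended at 62222739, inside the window. These distances were chosen after the lists had been seen. In RefSeq's order of starts the non-coding genes LINC01303, LINC03033 and HIF1A-AS1 precede HIF1A, and no peak was assigned to them.

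The 3 HA-YAP5SA peaks of the stretch before HIF1A differed widely in score. The strongest (chr14:62031301-62031876) lay 130.5 kb before HIF1A and scored 325, rank 51 of 847, on a TEAD1 peak of 1791 (rank 204) and a TEAD4 peak of 578 (rank 708). A second (chr14:62061095-62061405), 100.9 kb before HIF1A, scored 114, rank 426, on TEAD1 and TEAD4 peaks of 655 and 333. The third (chr14:62020533-62020737), 141.5 kb before HIF1A, scored 81.9, rank 807, near the lowest value of the list (80.1). The TEAD1 peak under this last one scored 1012, above the 655 under the second. None of the 3 overlapped a YAP peak, and the next YAP peak on that side lay 6.09 Mb before HIF1A.

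HA-YAP5SA stood on TEAD1 peaks with high scores, but not on all of them. It was present at 4 of 33 TEAD1 peaks (12.1%, interval 3.4 to 28.2%), against 2.06% of the whole list. YAP was present at 1 of 33 TEAD1 peaks (3.03%, 0.0767 to 15.8%), against 0.21% of the list. All 4 TEAD1 peaks with HA-YAP5SA were in the highest decile of TEAD1 scores, where 4 of 10 (40%, 12.2 to 73.8%) carried it, against 17.3% in the list. In the TEAD4 list of the window, 4 of 19 peaks carried HA-YAP5SA (21.1%, 6.05 to 45.6%), against 6.28%, and 1 carried YAP (5.26%, 0.133 to 26%), against 0.624%. The 23 TEAD1 peaks below that decile carried no HA-YAP5SA, against 0.37% below the highest decile in the list. Because the locus was chosen for an HA-YAP5SA peak, nothing is read from these shares.

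Some strong TEAD sites before HIF1A had no HA-YAP5SA peak, which is common in the list. Of the TEAD1 peaks that scored 655.09 or more, 2901 of 3556 in the list and 6 of 10 in the window had none. The TEAD1 peak 157.5 kb before HIF1A (chr14:62004196-62005128) scored 1586, rank 341, with a TEAD4 peak of 688, the second highest TEAD4 score of the window. The peak 181.1 kb before HIF1A (chr14:61980375-61981723) scored 981 with a TEAD4 peak of 533. The peak 133.4 kb before HIF1A (chr14:62028228-62029188) scored 905 with a TEAD4 peak of 671, and 1 TEAD1 peak stood between it and the strongest HA-YAP5SA peak of the stretch. These 3 TEAD4 values exceeded the 332 and 333 of the TEAD4 peaks under the weaker HA-YAP5SA peaks. The other 3 of the 6 TEAD1 peaks in the highest decile without HA-YAP5SA had lower TEAD4 values of 249 (at chr14:62013697-62014983), 199 (at chr14:62219157-62219932) and 164 (at chr14:62119994-62120578). Of the 5 TEAD4 peaks of the window in the highest decile of their list (26.3% of the 19, against 9.99% of the list), 2 carried HA-YAP5SA (40%, 5.27 to 85.3%), against 37.4% in the list.

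A pair of TEAD sites flanked the 4-list site on the HIF1A side. One (chr14:62219157-62219932) had a TEAD1 score of 710 and a TEAD4 score of 199, and the other (chr14:62217375-62218102) had 332 and 126. Their TEAD1 centres lay 9.53 and 11.3 kb before SNAPC1. A weak TEAD1 peak without TEAD4 (chr14:62214492-62214847, score 95.2) completed a run of 4. Neither HA-YAP5SA nor YAP had a peak at these 3 places.

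The remaining TEAD1 peaks outside the stretch lay alone or in a short run. The TEAD1 peak of the highest decile that lay nearest to the HIF1A start (chr14:62119994-62120578, 41.8 kb before it) scored 667 and carried the TEAD4 peak of 164 named above. Past SNAPC1 the strongest TEAD1 peak (chr14:62393588-62394282), 164.9 kb from the start, scored 628 with a TEAD4 peak of 199. A TEAD1 peak of 186 (chr14:62394284-62394624) followed it with 1 bp between them, and with another of 155 (chr14:62400939-62401512) they formed a run of 3 over 7.9 kb. These last 2 had no TEAD4 peak, and neither did a separate TEAD1 peak of 309 (chr14:62333902-62334521). None of these places had HA-YAP5SA or YAP, so every HA-YAP5SA and YAP peak of the window lay before the SNAPC1 start.

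The median score of the window's TEAD peaks was above that of their lists. TEAD1 scores ran from 95.2 to 3144 with a median of 305, against a list median of 177, and their median percentile was 72.2. Of the 33, 10 (30.3%, interval 15.6 to 48.7%) were in the highest decile of the list, which holds 10% of it by construction. Of these 10, 4 carried HA-YAP5SA, among them the peak of the site by which the locus was chosen. Over the list, 17.3% of the highest decile and 0.37% of the rest carried it. The score excess is thus not free of that choice. TEAD4 scores ran from 81.0 to 3100 with a median of 199, against 162 in the list, and the median percentile was 61.2. These medians depended on the window: within 100 kb of the start sites the median percentile was 58.3 for TEAD1 and 50.8 for TEAD4, and within 500 kb it was 56.5 and 60.6. Peaks were also wide: 29 of 33 TEAD1 peaks (87.9%, 71.8 to 96.6%) were wider than the list's median of 552 bp, a width that 49.9% of the list exceeds. For TEAD4, 15 of 19 (78.9%, 54.4 to 93.9%) exceeded 352 bp, against 49.7% of the list. Widths are not free of the choice of the locus either. Over the whole TEAD1 list the median width was 785 bp with HA-YAP5SA and 549 bp without it.

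TEAD4 accompanied TEAD1 at 18 of 33 peaks (54.5%, interval 36.4 to 71.9%), against 30.6% of the TEAD1 list. In the highest decile of TEAD1 scores it did so at 10 of 10 (69.2 to 100%), against 97%. Below it TEAD4 was present at 8 of 23 (34.8%, 16.4 to 57.3%), against 23.2%. The list's share fell inside the interval of the locus in both classes. These intervals are wide and rest on 10 and 23 neighbouring peaks that are not independent, so nothing is concluded from this. Whether the TEAD1 score accounts for the higher share of the locus was not tested. The TEAD1 score ran from 97.1 to 3144 with a median of 661 where TEAD4 was present, and from 95.2 to 309 with a median of 154 where it was not. The ranges overlapped, since weak TEAD1 peaks such as chr14:62050924-62051487 (score 97.1) also carried TEAD4.

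The TEAD1 and TEAD4 scores were correlated across the 18 sites with both factors. Spearman's rho was 0.911 and Pearson's r on log10 scores 0.874. Without the 4-list site rho was 0.895 and r 0.865 over 17 sites. Over all 11668 TEAD1 peaks on TEAD4 rho was 0.727 and r 0.749. These are descriptions across sites within 1 library each. Sites share the libraries, the cell line and the peak caller, and they are not replicates.

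**Figure D3:**
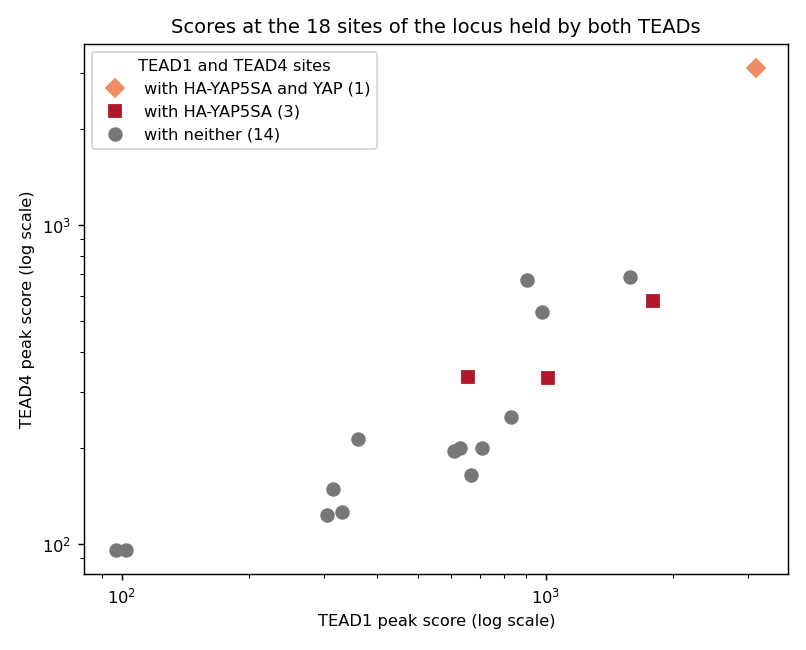
TEAD4 score against TEAD1 score (both log scales) at the 18 sites of the window with both factors, 1 point per site, marked by whether HA-YAP5SA and YAP, HA-YAP5SA alone or neither was present. The site with all 4 lists (3144 and 3100) stands apart at the upper right, and sites with neither reach 1586 for TEAD1 and 688 for TEAD4.

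The density of TEAD peaks was set against tiles of the length of the window (466957 bp) laid end to end over the assembled chromosomes. The window held 70.7 TEAD1 peaks per Mb, against a mean of 12.3 per Mb over 6611 tiles. Of these, 10 tiles (0.151%) held 33 or more TEAD1 peaks, and the fullest held 41. For TEAD4 the window had 40.7 peaks per Mb against a mean of 3.94, and 3 tiles (0.0454%) held 19 or more. At 4 peaks, HA-YAP5SA density was reached by 9 tiles (0.136%), a count that follows in part from how the locus was chosen. The TEAD counts are not free of that choice either, since 95.2% of all HA-YAP5SA peaks overlapped TEAD1 and 92.4% overlapped TEAD4. Among the tiles, 1300 (19.7%) held no TEAD1 peak. Within 100 kb of the start sites, which leaves out the stretch before HIF1A, the TEAD1 count was 9 and 9.14% of tiles of that length held as many.

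**Figure D4:**
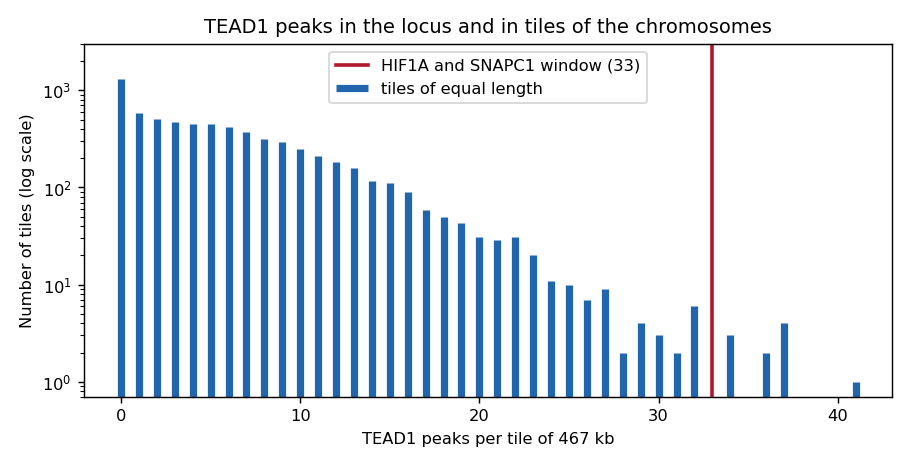
Number of tiles (log scale) holding each number of TEAD1 peaks, with 466957 bp per tile and a red line at the 33 TEAD1 peaks of the HIF1A and SNAPC1 window. The median tile holds 4 peaks and the fullest 41.

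The site before SNAPC1 was set beside the other 9 of the top 10 HA-YAP5SA peaks by score. Within 200 kb of the peak itself lay 23 TEAD1 peaks, against 25 around the peak on chromosome 13 (111137867 to 111138288), 20 around that on chromosome 7 (55035003 to 55035551) and from 3 to 11 around the other 7. TEAD4 peaks numbered 13, against 9 and 8 at those places. The YAP score was 924, against 361 at the peak on chromosome 1 (19378944 to 19379450), the next highest YAP score among these 10. The HA-YAP5SA score of 1028 was followed by 983 on chromosome 11 (18284158 to 18284766), where no YAP peak was present. Among the 10, the peak on chromosome 5 (10002 to 11787) had the lowest TEAD1 count, 3. It overlapped no TEAD1 or TEAD4 peak. Because it lies within 200 kb of the chromosome's start, its window is cut short on that side.

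At the left edge of the window the first HA-YAP5SA peak left out lay 1.97 kb beyond the limit (chr14:61959948-61960348, score 208, rank 138). It overlapped a TEAD1 peak of 1201 (chr14:61959761-61960466) and a TEAD4 peak of 683 (chr14:61959925-61960410), both the first of their lists beyond that limit. The first TEAD1 peak inside lay 7.48 kb within it and scored 154. At the right edge the last TEAD1 peak inside lay 27.8 kb within the limit and scored 155, and the first outside lay 2.89 kb beyond it and scored 416. The last TEAD4 peak inside scored 199 and the first outside 114.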

How the data were processed

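Chromatin of HuCCT1 cells was cross-linked with formaldehyde, sonicated to 200 to 500 bp and precipitated with antibodies, per the labels' protocols. Bowtie2 and hg19 are named in the submitters' processing notes. Peak names begin with MACS, per the files. Not given in the sources used here are the caller's version, its threshold and its control. Each deposited list comes from 1 library, and its score is the authors' value on an unstated scale.

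Peaks were taken by centre. Starts of the lists without a header were raised by 1, so that starts are uncertain by 1 bp. Peaks overlapped when they shared 1 bp. The start sites come with the rule for the locus, and the longer lists of pathway genes planned for comparison were not used here, since no hg19 annotation was at hand. The members and lists were chosen with earlier results of these data known. Named were all peaks at sites with HA-YAP5SA or YAP, the 5 highest TEAD1 and TEAD4 peaks, those nearest to the start sites and to the window's edges, and a few chosen after their values were seen. The functions were tested on simulated data. Calculations ran in Python 3.11.15 with SciPy 1.17.1, pandas 2.3.3 and NumPy 2.4.6, and figures were drawn in matplotlib 3.10.9.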

Additional observations from a re-analysis of the deposited data

How the results depend on the processing

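No test was run, so the alternatives show only how values move. Of 54 alternative values over 17 results, 39 were classed as unmoved, which does not mean that all were close to the value reported. They include TEAD4 counts of 26 with 500 kb and 13 for peaks at or above the list's median score. A TEAD1 count of 22 for such peaks and a share of TEAD1 on TEAD4 of 44.6% with 500 kb were classed likewise. The YAP and TAZ counts were the same at every setting. The median percentiles were among the 39 because they moved by less than 1 SD between peaks. That of TEAD4 was 50.8 within 100 kb of the start sites, near the middle of its list. With windows of 50 kb the locus held 1 HA-YAP5SA, 7 TEAD1 and 4 TEAD4 peaks, and with 100 kb it held 1, 9 and 5. With 500 kb the TEAD1 count was 56. Of the 4 HA-YAP5SA peaks, 2 were at or above the list's median score. The share of tiles with as many peaks was 0.873% for TEAD1 and 0.437% for TEAD4 over chromosome 14 only (2 and 1 of 229 tiles), and 9.14% and 4.63% for the 100 kb window, which holds fewer peaks. With every tile moved along by a fraction of its length, the shares were 0.167% and 0.0758%. That shift and the other run distances were chosen after seeing the data. No paired analysis was possible because each group has 1 library. The depth of the libraries is unknown, so a missing peak does not show that a protein was absent.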
